A study of Mus musculus with 18 samples.

Results

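*Cyp2c65*, *Cyp2c66*, *Cyp2c29*, *Cyp2c38*, *Cyp2c55* and *Cyp2c68* are 6 of the 15 protein-coding *Cyp2c* genes among the 55487 genes counted in mouse ileum. They were chosen by symbol as *Cyp2c* epoxygenases of the intestine, with their levels in these libraries already known, so the differences between genotypes are a description, by values and intervals, and the count of members called is given only beside the share of all genes called. Whole-thickness ileum was sequenced from 18 C57BL6/J mice fed chow, 1 library per mouse. The 6 IEC-*Ppara* heterozygous mice (2 female, 4 male) carried *Villin-CreERT2* and 1 copy of the CAG-*Ppara*,-*EGFP* allele at *Col1a1*, and the 6 IEC-*Ppara* homozygous mice (2 female, 4 male) carried *Villin-CreERT2* and 2 copies. The 6 control mice (3 female, 3 male) carried the CAG-*Ppara*,-*EGFP* allele in either dose without *Villin-CreERT2*. All mice, controls included, received tamoxifen at 100 mg/kg daily for 3 days at 8 to 13 weeks of age, and tissue was taken 2 weeks after the last injection. *Villin-CreERT2* acts in the intestinal epithelium, while the tissue sequenced holds every layer of the gut wall, and fewer cells of a type cannot be told apart from less RNA per cell.

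Cyp2c enzymes are cytochromes P450 of the endoplasmic reticulum. They take electrons from P450 oxidoreductase and oxidise drugs, steroids and polyunsaturated fatty acids. On arachidonic acid, released from membranes by phospholipases A2, many of them act as epoxygenases and form epoxyeicosatrienoic acids, lipid mediators that soluble epoxide hydrolase turns into diols. Liver is the best known site of *Cyp2c* expression, and several mouse *Cyp2c* genes are expressed in the gut epithelium. PPARα is a nuclear receptor that binds fatty acids and drives genes of fatty acid oxidation, among them P450 genes of the Cyp4a family.

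Of the 15 genes, 14 lie side by side within 1.18 Mb of chromosome 19 (GRCm38, chr19:39007019-40187333), and *Cyp2c23* lies apart at chr19:44005022-44029208. The members sit at chr19:39007019-39042693 for *Cyp2c55*, chr19:39061015-39093944 for *Cyp2c65*, chr19:39113898-39187072 for *Cyp2c66* and chr19:39269405-39330713 for *Cyp2c29*, all on the plus strand, and at chr19:39389556-39463075 for *Cyp2c38* and chr19:39688834-39741054 for *Cyp2c68*, both on the minus strand. *Cyp2c65* and *Cyp2c66* are direct neighbours among the *Cyp2c* genes and near copies of each other, with 1416 of 1470 coding bases the same (96.3%) in the GENCODE M21 transcripts. *Cyp2c68* was closest to *Cyp2c40*, the next *Cyp2c* gene along the chromosome, at 98.1%. Of the 6 members *Cyp2c55* had the lowest identity to its nearest relative, 77.4% to *Cyp2c29*. *Cyp2c38* was nearest to *Cyp2c39* at 94.2%, and *Cyp2c29* to *Cyp2c39* at 89.5%. Each member has a transcript of 9 exons with a coding sequence of 1470 bases, or 1473 for *Cyp2c68*.

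Since only uniquely aligned reads were counted, near copies can lose reads. Of all stretches of 150 bases, the read length, 4.55% of those in *Cyp2c65* were also in *Cyp2c66*, and 4.16% of those in *Cyp2c66* were also in *Cyp2c65*. For *Cyp2c68* the share held by *Cyp2c40* was 8.83%. *Cyp2c55*, *Cyp2c29* and *Cyp2c38* shared no such stretch with any of the GENCODE M21 transcripts of other genes. For shorter stretches of 75 bases the shares were larger, at 11.4% for *Cyp2c65* and 10.8% for *Cyp2c66*. For *Cyp2c68* the share was 28.5%, held by *Cyp2c40*, *Cyp2c67* and *Cyp2c69*. It was 2.46% for *Cyp2c29*, 1.86% for *Cyp2c38* and 0% for *Cyp2c55*. Most of each gene was therefore open to unique counting, but reads from the shared stretches, and small amounts read from 1 copy as the other, remain uncertain for *Cyp2c65*, *Cyp2c66* and *Cyp2c68*.

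The promoters of the 4 members with more than a few counts are shown because *Cyp2c65* and *Cyp2c66*, the pair that was higher in IEC-*Ppara* ileum, also share their upstream sequence. The 200 bases before the RefSeq start site are given 5′ to 3′ on the strand of the gene (GRCm38.p6; chr19:39060806-39061005 for *Cyp2c65*, chr19:39113698-39113897 for *Cyp2c66*, chr19:39006819-39007018 for *Cyp2c55* and chr19:39741102-39741301, minus strand, for *Cyp2c68*), with the best match to the binding core of HNF4, CAAAGTCCA, in capitals.
Cyp2c65: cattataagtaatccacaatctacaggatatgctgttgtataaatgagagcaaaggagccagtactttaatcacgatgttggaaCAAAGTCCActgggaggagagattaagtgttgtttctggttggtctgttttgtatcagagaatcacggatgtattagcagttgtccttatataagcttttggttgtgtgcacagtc
Cyp2c66: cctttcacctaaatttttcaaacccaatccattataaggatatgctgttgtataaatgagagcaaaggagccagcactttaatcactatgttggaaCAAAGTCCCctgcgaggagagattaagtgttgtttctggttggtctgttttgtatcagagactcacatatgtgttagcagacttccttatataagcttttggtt
Cyp2c55: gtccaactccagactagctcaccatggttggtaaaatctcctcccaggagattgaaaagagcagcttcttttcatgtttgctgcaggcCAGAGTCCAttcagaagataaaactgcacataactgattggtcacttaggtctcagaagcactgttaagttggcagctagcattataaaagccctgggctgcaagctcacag
Cyp2c68: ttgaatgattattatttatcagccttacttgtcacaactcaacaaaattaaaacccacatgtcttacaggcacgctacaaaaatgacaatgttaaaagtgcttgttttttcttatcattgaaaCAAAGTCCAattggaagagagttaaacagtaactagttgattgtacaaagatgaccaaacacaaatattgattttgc
All 6 members were found in the RefSeq promoter table, which gives 250 bases before and 50 bases after the start. In these 300 bases, *Cyp2c65* and *Cyp2c66* aligned over 271 bases, of which 256 (94.5%) were the same. A further 22 bases of the alignment stood against gaps and are left out of this share. The core is intact at -116 to -108 in *Cyp2c65* and at -77 to -69 in *Cyp2c68*. In *Cyp2c66* it lies at -104 to -96 with A9C, and in *Cyp2c55* at -112 to -104 with A3G, each position counted from 1 at the first base of the core, with the base of the core first. *Cyp2c29* has C8T at -109 to -101, and *Cyp2c38* had no match with up to 1 mismatch. Positions for *Cyp2c29*, here and below, count from the RefSeq start at chr19:39287085. That start lies inside the gene span given above, not at its first base. On either strand, 0.475% of the 32851 promoters of this length held the exact core, and 8.47% held it with up to 1 mismatch. The element that PPARα binds with its partner RXR was searched as a direct repeat of AGGTCA with 1 base between. No member held it with 0 or 1 mismatch in the 12 fixed letters, where 0.0396% and 0.554% of all promoters did. With up to 2 mismatches *Cyp2c29* alone held a match, AGGTCAAGGGTAA at -154 to -142, as did 3.86% of all promoters, and its first 6 bases were also the only copy of AGGTCA itself among the members (16.3% of all promoters). These are matches of letters in a short window and say nothing of elements elsewhere.

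Counts summed to between 38528522 and 50376371 per library. *Ppara* counts, which take in the endogenous gene and may take in the transgene, were 25.8 to 47.4 CPM, the counts scaled to the library total, in controls, 107 to 196 in IEC-*Ppara* heterozygous and 184 to 279 in IEC-*Ppara* homozygous libraries, so every library followed its label against control. *Fabp6*, the ileal bile acid binding protein, was at 1914 CPM or above in every library, and the colonic *Car1* at 2.23 CPM or below. *Car1* does not stand for all colonic markers. The summed CPM of the 5 listed was 135 to 227 in controls, 138 to 221 in heterozygous and 167 to 267 in homozygous libraries. The summed CPM of 9 epithelial markers, all found, was 15627 ± 1558 in controls, 15822 ± 1240 in heterozygous libraries and 15073 ± 1367 in homozygous libraries (mean ± SD, n = 6 each), and that of 9 enterocyte markers was 16634 ± 3574, 16692 ± 1981 and 16860 ± 2988. The summed CPM of 8 smooth muscle markers was 3246 ± 1764, 2784 ± 1283 and 4900 ± 1781 in the same order.

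The 6 members fell into a transcribed and a nearly silent set. *Cyp2c55*, *Cyp2c65*, *Cyp2c66* and *Cyp2c68* had counts in all 18 libraries and were among the 12645 protein-coding genes tested (more than 3 CPM in at least 4 libraries). *Cyp2c29*, best known as an inducible liver enzyme, and the epoxygenase gene *Cyp2c38* were not tested. *Cyp2c29* had 12 counts in all, 2 or 4 in each of control 3, control 5, heterozygous 5 and heterozygous 6, and its highest level was 0.101 CPM. *Cyp2c38* had 6 counts in all, 2 in each of control 2, control 4 and control 5. In homozygous libraries both were at 0, where a count of 0 allows up to 3 counts per library, or 0.0596 to 0.0779 CPM over all libraries (counting error only). Transcripts were thus clearly present in this ileum for 4 of the 6 members, and whether the enzymes act as epoxygenases there was not measured.

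**Figure D1:**
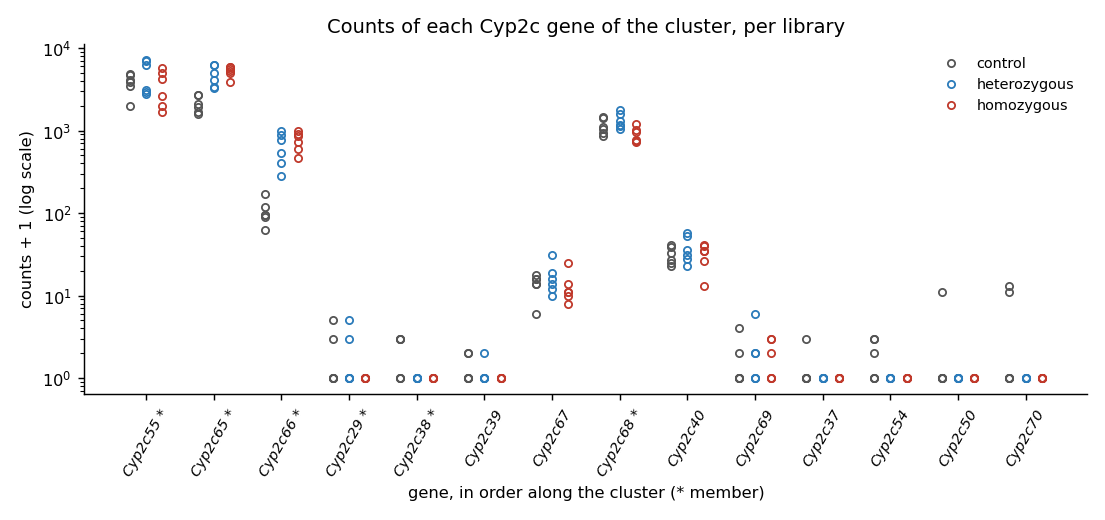
Counts (plus 1, log scale) of the 14 *Cyp2c* genes of the chromosome 19 cluster in their order along the chromosome, 1 point per library, coloured by genotype, with members starred. *Cyp2c55*, *Cyp2c65*, *Cyp2c66* and *Cyp2c68* reach 61 counts or more in every library, while *Cyp2c29* and *Cyp2c38* stay at 4 counts or below.

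The other *Cyp2c* genes were low throughout. None of the 9 passed the filter. *Cyp2c67* and *Cyp2c40*, which flank *Cyp2c68*, had 5 to 30 and 12 to 57 counts per library, against 718 to 1780 for *Cyp2c68*. *Cyp2c39*, between *Cyp2c38* and *Cyp2c67*, had 3 counts over all libraries. *Cyp2c23* was at 1.12, 1.42 and 1.06 CPM in control, heterozygous and homozygous libraries (group means). The liver genes *Cyp2c50* and *Cyp2c70* had counts in 1 and 2 control libraries and in no other. Control 5 held all 10 counts of *Cyp2c50*, 12 of the 22 of *Cyp2c70* and 4 of the 12 of *Cyp2c29*, and the hepatocyte transcript *Alb* (albumin), singled out after its values were seen, was highest there at 12.9 CPM. Of the hepatocyte markers, *Ahsg* was 1.62 CPM in control 5 and at most 0.268 elsewhere, and *Fga* 0.570 and at most 0.536. The summed CPM of all 8 hepatocyte markers was 95.7 in that library, within the 20.1 to 147.6 of the controls. It was below the 185.9 of the highest homozygous library. *Alb* was at most 0.963 CPM in homozygous libraries, so other markers carry the sum there, and the sum does not follow *Alb*. The part of these transcripts in the *Cyp2c29* counts was not tested.

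Per length, the order of the members in control ileum was *Cyp2c55*, *Cyp2c65*, *Cyp2c68*, *Cyp2c66*. In FPKM, the deposited counts scaled to gene length and library total, control levels were 43.3 ± 10.1 for *Cyp2c55*, 24.7 ± 3.89 for *Cyp2c65*, 15.0 ± 2.55 for *Cyp2c68* and 1.21 ± 0.369 for *Cyp2c66* (mean ± SD, n = 6). The ranges of *Cyp2c55* (25.0 to 52.5) and *Cyp2c65* (20.5 to 30.1) overlapped, and the other neighbours in this order did not. In heterozygous ileum *Cyp2c55* (54.6 ± 23.6) and *Cyp2c65* (54.4 ± 14.5) stood level, above *Cyp2c68* (17.1 ± 2.80) and *Cyp2c66* (7.48 ± 3.48). In homozygous ileum *Cyp2c65* came first at 61.4 ± 7.78, with a range that overlapped that of *Cyp2c55* (40.1 ± 19.4), and *Cyp2c68* (11.7 ± 2.44) overlapped *Cyp2c66* (8.70 ± 2.36).

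*Cyp2c65* was higher in both IEC-*Ppara* groups. Its level was 39.6 to 58.0 CPM in controls (median 47.2), 71.6 to 132 in heterozygous (median 111) and 98.8 to 138 in homozygous libraries (median 117). No control reached the lowest IEC-*Ppara* library, while the heterozygous and homozygous ranges overlapped. The edgeR fit over all 18 libraries gave 2.26-fold for heterozygous against control (95% interval 1.79 to 2.86) and 2.49-fold for homozygous against control (1.97 to 3.15). The homozygous to heterozygous difference was 0.14 on the log2 scale (SE 0.16, interval -0.19 to 0.47).

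*Cyp2c66*, the near copy, started from a much lower level and differed more. It was at 1.54 to 3.67 CPM in controls (median 2.25), 5.89 to 24.6 in heterozygous (median 14.4) and 11.7 to 22.7 in homozygous libraries (median 17.4). Here too no control reached the lowest IEC-*Ppara* library, and the IEC-*Ppara* groups overlapped. The fold difference was 6.31 for heterozygous against control (4.08 to 9.78) and 7.18 for homozygous against control (4.62 to 11.1), and the log2 difference between homozygous and heterozygous was 0.19 (SE 0.28, interval -0.40 to 0.77). Only 1 of 6 control libraries was over 3 CPM, against all 12 IEC-*Ppara* libraries, so *Cyp2c66* entered the test through the groups where it is high.

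**Figure D2:**
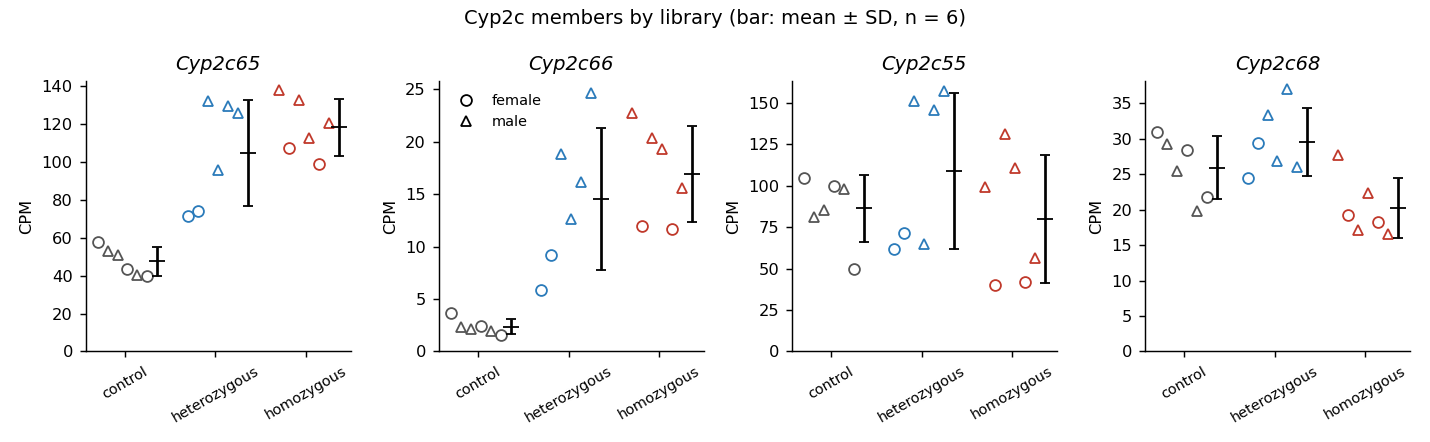
CPM of the 4 transcribed members in each library by genotype (circles female, triangles male), with mean and SD at the right of each group (n = 6). For *Cyp2c65* and *Cyp2c66* all IEC-*Ppara* points lie above all control points, and for *Cyp2c55* and *Cyp2c68* the groups overlap.

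*Cyp2c55*, which lies next to *Cyp2c65* on the other side and codes for an enzyme that hydroxylates arachidonic acid, did not share this pattern. It was at 49.9 to 105 CPM in controls (median 91.7), 61.8 to 157 in heterozygous (median 109) and 40.1 to 131 in homozygous libraries (median 77.8). The 3 groups overlapped. Its log2 difference from control was 0.38 in heterozygous (SE 0.31, interval -0.28 to 1.04) and -0.12 in homozygous libraries (SE 0.31, interval -0.78 to 0.54), which leaves room for differences in either direction.

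*Cyp2c68* was lowest in homozygous ileum. Its level was 19.8 to 30.9 CPM in controls (median 26.9), 24.5 to 37.1 in heterozygous (median 28.1) and 16.6 to 27.7 in homozygous libraries (median 18.7). The groups overlapped, with 1 homozygous library, replicate 1, above the lowest heterozygous one. The log2 difference was -0.35 for homozygous against control (SE 0.14, interval -0.66 to -0.05), 0.23 for heterozygous against control (SE 0.14, interval -0.08 to 0.53) and -0.58 for homozygous against heterozygous (SE 0.14, interval -0.88 to -0.28). The summed level of 5 ileal markers (*Fabp6*, *Slc10a2*, *Slc51a*, *Slc51b* and *Fgf15*) was also lowest in homozygous ileum but not highest in heterozygous ileum. It was 6063 ± 958 CPM in controls, 5766 ± 631 in heterozygous and 4450 ± 1009 in homozygous libraries (n = 6 each). The sum does not stand for each ileal marker. *Fabp6* was 3108 to 5489 CPM in controls and 1914 to 4653 in homozygous libraries. *Slc10a2* was 387 to 654 and 355 to 680 CPM in the same order. The summed level of 5 colonic markers was 166 ± 35.8, 172 ± 29.3 and 217 ± 39.2 CPM in control, heterozygous and homozygous libraries. The part of the ileal and colonic markers in the level of *Cyp2c68* was not tested.

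At an edgeR adjusted p under 0.05, *Cyp2c65* and *Cyp2c66* were called higher in homozygous than control ileum, 2 of the 4 members tested, where 0.372% of all 12645 genes were called higher. The same 2 were called in heterozygous against control, with 0.293% of all genes called higher. Every homozygous library was above every control for 0.593% of genes, and every heterozygous library above every control for 0.293%. Between homozygous and heterozygous ileum 0 of 4 members were called by edgeR, with 0.00791% of all genes called, and 0 by DESeq2, with 0.0791%. At an unadjusted p under 0.05 in edgeR 1 member, *Cyp2c68*, was called, with 7.61% of all genes. The members were chosen with these contrasts known, and the comparisons with control share the same 6 libraries, so these counts describe the choice and are not evidence for it.

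**Figure D3:**
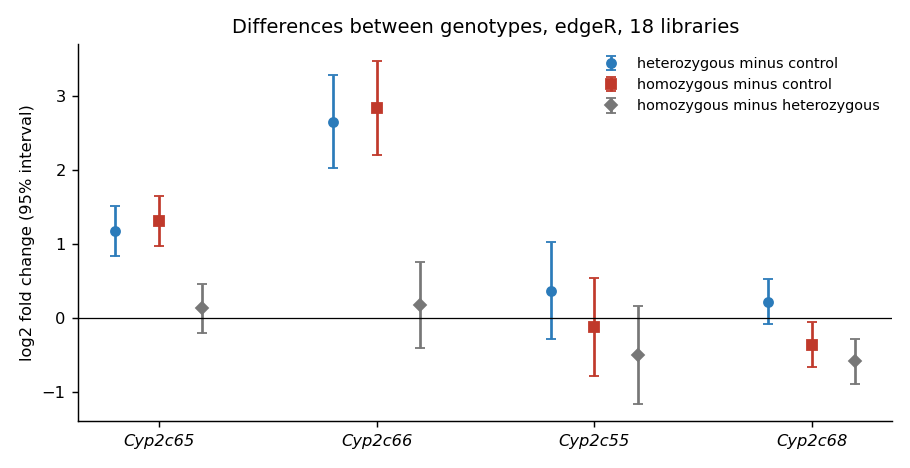
Log2 fold changes of the 4 transcribed members between genotypes with 95% intervals, from 1 edgeR fit over 18 libraries. *Cyp2c65* and *Cyp2c66* lie well above 0 against control and near 0 between homozygous and heterozygous, and *Cyp2c68* lies below 0 in homozygous against heterozygous.

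The make-up of the *Cyp2c* transcripts differed between genotypes accordingly. The 4 transcribed members held 98.7 ± 0.229% of the summed *Cyp2c* FPKM in controls. *Cyp2c55* was the largest share in controls at 50.3 ± 5.91%, and was 39.2 ± 5.56% in heterozygous and 31.1 ± 8.85% in homozygous libraries. *Cyp2c65* was 29.2 ± 3.80%, 41.0 ± 3.51% and 51.3 ± 7.38% in the same order, the largest share in homozygous ileum. *Cyp2c66* was 1.40 ± 0.216%, 5.37 ± 1.30% and 7.04 ± 0.479%, and *Cyp2c68* 17.8 ± 2.52%, 13.5 ± 3.36% and 9.81 ± 2.09%. The summed FPKM was 85.4 ± 14.3 in controls, 134.9 ± 42.6 in heterozygous libraries and 122.8 ± 28.9 in homozygous libraries, and ranges of all 3 groups overlapped (59.9 to 103, 86.4 to 175 and 89.6 to 156). Set against its near copy, *Cyp2c66* was at 4.86 ± 0.928% of *Cyp2c65* per length in controls (3.85 to 6.27%), 13.2 ± 3.64% in heterozygous (8.15 to 19.4%) and 14.0 ± 2.51% in homozygous ileum (11.0 to 17.0%). The ratios of controls and of IEC-*Ppara* libraries did not overlap, which describes the same values as the fold changes and is not a further result.

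**Figure D4:**
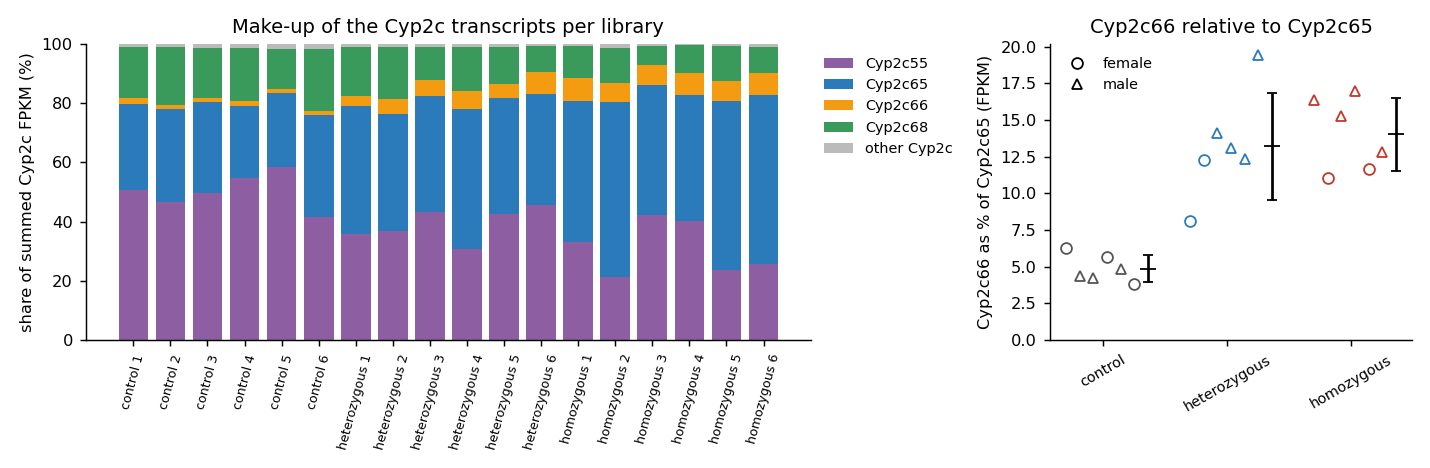
Left, share of the summed *Cyp2c* FPKM held by each transcribed member and by the other *Cyp2c* genes in each library. Right, *Cyp2c66* as a percentage of *Cyp2c65* by FPKM per library (circles female, triangles male; bar, mean ± SD, n = 6), with controls at 3.85 to 6.27% and IEC-*Ppara* libraries at 8.15% or above.

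Sex, which was not used to choose the members, was tested with genotype as a covariate. Mean levels were lower in females than in males for the 4 members in both IEC-*Ppara* groups, without overlap of the sexes for *Cyp2c65* and *Cyp2c66*, but no difference passed the test over all genes. *Cyp2c65* was 71.6 and 74.4 CPM in heterozygous females against 95.8 to 132 in males, and 98.8 and 107 in homozygous females against 113 to 138 in males. *Cyp2c66* was 5.89 and 9.23 CPM in heterozygous females against 12.7 to 24.6 in males, and 11.7 and 12.0 in homozygous females against 15.6 to 22.7 in males. For both genes the sexes did not overlap in either IEC-*Ppara* group, which held with females below males for 0.38% of all genes, and both overlapped in controls. *Cyp2c55* was 40.1 and 42.1 CPM in homozygous females against 56.4 to 131 in males, and 61.8 and 71.7 in heterozygous females against 64.9 to 157 in males, an overlap through 1 male.

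Over all 18 libraries the log2 difference of females from males was -0.72 for *Cyp2c55* (SE 0.23, unadjusted p = 0.0070), -0.32 for *Cyp2c65* (SE 0.12, unadjusted p = 0.016), -0.55 for *Cyp2c66* (SE 0.23, unadjusted p = 0.028) and -0.06 for *Cyp2c68* (SE 0.13, unadjusted p = 0.64). The edgeR adjusted p over all genes was 0.998 for each, and the lowest with DESeq2, which called 0.0633% of genes, was 0.291. edgeR called 0.0554% of all genes for sex, none of them a member. At an unadjusted p under 0.05 in edgeR, 1.55% of genes were lower in females, as 3 of the 4 members were. These 3 genes varied together over the same libraries (Pearson r 0.69 to 0.86 with genotype means subtracted), so they are not 3 separate results. In the 3 female and 3 male controls alone the log2 differences were -0.05, -0.02, 0.26 and 0.14 in the same order of genes.

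The interaction of sex with carrying *Villin-CreERT2*, the female minus the male difference from control, was below 0 for each of the 4 members, again without passing the test over all genes. For *Cyp2c65* and *Cyp2c66* both sexes were above control on average, females by less, while for *Cyp2c55* the mean of females was 84.8 CPM in controls, 66.8 in heterozygous libraries and 41.1 in homozygous ones, and that of males 88.1, 129.9 and 99.3 CPM. The interaction was -1.24 on the log2 scale for *Cyp2c66* (SE 0.36, unadjusted p = 0.0031, edgeR adjusted p = 0.536), -1.06 for *Cyp2c55* (SE 0.40, unadjusted p = 0.016), -0.48 for *Cyp2c65* (SE 0.22, unadjusted p = 0.044) and -0.32 for *Cyp2c68* (SE 0.26, unadjusted p = 0.23). The lowest adjusted p of a member was 0.109 with DESeq2. edgeR called 0% of all genes and DESeq2 called 44 genes (0.348%), and 1.55% of genes had an interaction below 0 at an unadjusted p under 0.05 in edgeR. With 2 females in each IEC-*Ppara* group the intervals are wide. *Ppara* itself was 107 and 122 CPM in heterozygous females against 108 to 196 in males, and 184 and 279 in homozygous females against 184 to 231 in males. In controls its mean was 43.3 CPM in females and 32.9 in males. The interaction for *Ppara* was -0.55 on the log2 scale (SE 0.29, edgeR unadjusted p = 0.076, adjusted p = 0.999). The summed CPM of 9 enterocyte markers was 13666 and 18395 in heterozygous females against 15909 to 19270 in males, and 18500 and 18686 in homozygous females against 12760 to 20835 in males. In the same order, 5 goblet cell markers were at 23987 and 27487 against 19479 to 23053, and 19744 and 21730 against 16101 to 20878. For 6 B cell markers it was 14.8 and 219 against 8.33 to 12.7, and 7.02 and 8.75 against 7.16 to 64.8. For 6 pancreatic acinar cell markers it was 4.71 and 4.73 against 4.37 to 5.78, and 4.00 and 4.24 against 5.85 to 6.62. In each other marker set the sexes overlapped in both groups. The part of these levels in the sex difference was not tested.

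The levels of the members were also compared from library to library. By Pearson r of log2 CPM over the 18 libraries, *Cyp2c66* was the gene most like *Cyp2c65* of 12644 others (r = 0.976), just ahead of a gene with the same rounded value, and r here takes in the difference between groups. With the genotype mean of each gene subtracted, r was 0.863, rank 3 for *Cyp2c65*, and *Cyp2c66* was the gene most like *Cyp2c55* (r = 0.822). Sex was not subtracted, here or in the relations below, so r also takes in any difference between the sexes. Within groups of 6 libraries r of *Cyp2c65* with *Cyp2c66* was 0.750 in controls, 0.908 in heterozygous libraries and 0.822 in homozygous libraries (exact permutation p = 0.057, 0.019 and 0.053, two-sided; Spearman rho 0.543, 0.714 and 0.829, exact permutation p = 0.297, 0.136 and 0.058). Leaving out the 2 libraries farthest from the median of *Cyp2c65* gave r of 0.384, 0.679 and 0.432. Of 18 such relations among the 4 members and 3 groups none passed after adjustment, the lowest adjusted p being 0.157 for r and 0.350 for rho (Benjamini-Hochberg, exact permutation test), so the relation within groups is not established by these libraries.

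**Figure D5:**
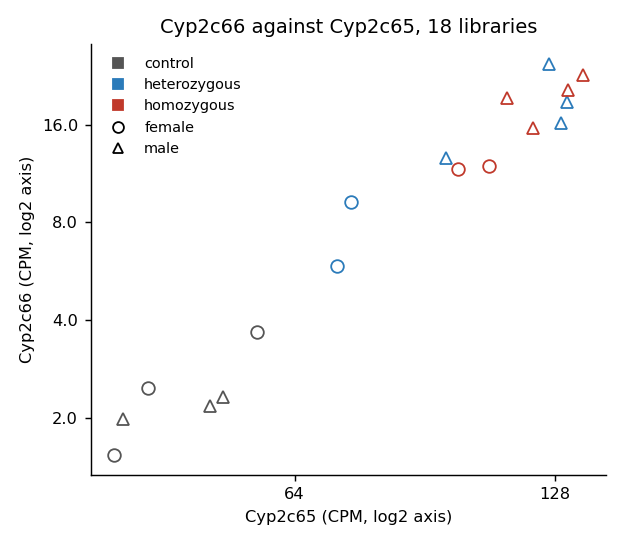
CPM of *Cyp2c66* against *Cyp2c65* on log2 axes, 1 point per library, coloured by genotype (circles female, triangles male). The 6 controls lie apart at the lower left, and within the IEC-*Ppara* groups the females lie at the lower end.

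Apart from the members, over 18 libraries the 3 nearest to *Cyp2c65* were *Gal3st2b*, a sulfotransferase gene (r = 0.976), *Hsd17b4*, the multifunctional enzyme of peroxisomal β-oxidation (0.973), and *Hsd17b11*, a lipid droplet dehydrogenase (0.965). With genotype means subtracted they were *Hsd17b4* (0.878), *Gal3st2b* (0.871) and *Pex3*, a peroxisome assembly factor (0.842). Nearest to *Cyp2c66* were *Cyp4a10*, a fatty acid ω-hydroxylase (0.974), *Fabp1*, a fatty acid binding protein (0.972), and *Pxmp4*, a peroxisomal membrane protein (0.971), and with means subtracted *Retsat*, retinol saturase (0.828), *Pxmp4* (0.827) and *Tmem135* (0.811). *Cyp4a10* went from 0.069 CPM in controls to 6.23 in heterozygous and 7.00 in homozygous libraries, and *Fabp1* from 10.8 to 111 and 158 CPM (group means).

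For *Cyp2c55* the most similar genes over 18 libraries were *Gde1* (0.783), *Kdsr*, of sphingolipid synthesis (0.774), and *Hsd17b2* (0.770). With means subtracted, apart from *Cyp2c66*, they were *Ces2b*, a carboxylesterase (0.808), *Gde1* (0.806) and *Cyp4a10* (0.797). Apart from the members, *Cyp4a10* was also nearest to *Cyp2c66* over 18 libraries. For *Cyp2c68* the most similar genes over 18 libraries were *Mtarc2*, a mitochondrial reductase (0.929), *Acp6*, a lysophosphatidic acid phosphatase (0.904), and *Pbld2* (0.893). With means subtracted they were *Mtarc2* (0.910), *Gm5617* (0.909) and *Taf10* (0.893). These are the highest of 12644 values per member and libraries share depth and tissue make-up, so they rank genes and carry no test.

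The rest of the epoxygenase pathway gave no change that passed the test. Of 51 listed genes that are no member, 27 were tested, and by edgeR 0 were called in homozygous or heterozygous against control (3 and 5 at an unadjusted p under 0.05, or of all genes 8.06% and 5.29%). The lowest adjusted p was 0.458 and 0.211. The log2 difference was above 0 for 20 of 27 genes in homozygous (median 0.09) and 22 of 27 in heterozygous ileum (median 0.04), against medians of -0.005 and -0.006 over all genes tested. DESeq2 called 1, *Ephx2*, higher in heterozygous than control ileum, with 0.546% of all genes.

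By role, the other arachidonic acid epoxygenases came from the *Cyp2j* family, of which 2 of 8 were tested. *Cyp2j6* was 72.7 ± 7.05 CPM in controls, 92.3 ± 17.3 in heterozygous and 91.2 ± 14.2 in homozygous libraries (log2 differences 0.37 and 0.33, SE 0.13 each, adjusted p = 0.686 and 0.552). *Cyp2j9* was near the filter at 3.15 ± 0.708 CPM in controls. At 20.2 FPKM in controls *Cyp2j6* stood between *Cyp2c65* and *Cyp2c68* per length.

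Among the electron donors, *Por*, P450 oxidoreductase, was 199.9 ± 21.8 CPM in controls, 267 ± 54.2 in heterozygous and 253 ± 23.8 in homozygous libraries (log2 differences 0.45 and 0.34, SE 0.13 each, edgeR adjusted p = 0.282 and 0.458). *Cyb5b*, a cytochrome b5, was 423 ± 31.4 CPM in controls, with log2 differences of 0.01 and -0.06. Of the epoxide hydrolases, *Ephx2*, the soluble form, was 49.8 ± 6.01 CPM in controls, 65.7 ± 9.93 in heterozygous and 60.6 ± 9.93 in homozygous libraries (log2 differences 0.44 and 0.29, SE 0.11 each, edgeR adjusted p = 0.211 and 0.548). *Ephx1*, the microsomal form, was 27.5 ± 7.29 CPM in controls, with log2 differences of -0.15 and -0.09.

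Of the phospholipases A2, 7 of 10 were tested, led in controls by *Pla2g12b* (40.5 ± 3.39 CPM) and *Pla2g6* (30.8 ± 3.20 CPM). Their log2 differences in heterozygous and homozygous ileum were 0.11 and 0.07 for *Pla2g12b* and 0.09 and 0.04 for *Pla2g6*. The widest differences of this role, singled out after the values were seen, were 0.31 and 1.20 for *Pla2g4c* (SE 0.74 and 0.75) and -0.49 and 0.50 for *Pla2g5* (SE 0.49 and 0.48). Of cyclooxygenases and lipoxygenases, which draw on the same arachidonic acid, 5 of 8 were tested, led by *Ptgs1* (41.5 ± 6.01 CPM, log2 differences 0.01 and 0.17) and *Alox5* (6.93 ± 0.987 CPM, 0.02 and 0.14). Among nuclear receptors that act on *Cyp2c* genes, *Hnf4a* was 1320 ± 149 CPM in controls and *Vdr* 444 ± 35.9 CPM, with log2 differences for heterozygous and homozygous against control of 0.04 and -0.03 for *Hnf4a* and of 0.28 and 0.09 for *Vdr* (edgeR adjusted p = 0.334 and 0.805 for *Vdr*). A p that misses the threshold does not show that these genes were the same in the groups.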

How the data were processed

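Poly-A RNA of whole-thickness ileum was sequenced as paired reads of 150 bases by the authors, aligned with STAR to GRCm38 (Ensembl) and counted per gene with featureCounts from uniquely aligned, unambiguous reads. The kit is not stated to mark strand. The deposited counts are not normalized. The deposited CPM divide these counts by the library total, and the FPKM deposited by the authors divide them also by gene length. A further deposited table of moderated log2 values was not used here. Libraries were grouped by the labelled genotype and sex.

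Genes over 3 CPM in at least 4 libraries and protein-coding, 12645 in all, were fitted with edgeR 4.0.16 (glmQLFit, glmQLFTest, TMM, all 18 libraries; R 4.3.3), with Benjamini-Hochberg adjustment over all of them at 0.05 and 95% intervals. Coefficients were 1 per genotype, plus sex or sex by *Villin-CreERT2* in the sex fits. Likeness was computed on log2 CPM (prior count 2). Alternatives were DESeq2 1.42.0, other scalings and filters, covariates, a replicate block and each library left out. The fits were tested on simulated data. Coding sequences came from GENCODE M21, with identity after global alignment in Biopython 1.88, and promoters from RefSeq (GRCm38.p6), searched on both strands. Protein sequences were not used here.

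The members and gene lists were chosen with earlier results of these data known. Named were the 6 members, the next *Cyp2c* gene on each side, *Ppara*, the 2 most abundant genes of each pathway role in controls (or those called), and the 3 genes most like each tested member. *Cyp2c50*, *Cyp2c70*, *Alb*, *Ahsg*, *Fga*, *Pla2g4c* and *Pla2g5* were named after their values were seen, and the tissue markers come from the marker lists. One library was made per mouse, so p-values measure the spread between mice.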

Additional observations from a re-analysis of the deposited data

Results flagged for a closer look

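Among 15 checks of the members' CPM (6 members in 3 groups, leaving out groups at 0 throughout) no library stood apart by Dixon's criterion for 6 samples (0.625). Among 24 checks of the shares and ratios by genotype, 1 did. The share of *Cyp2c66* in the summed *Cyp2c* FPKM of controls had its highest library, replicate 1, at 1.82% against a median of 1.34%, with a gap to the next library of 0.718 of the range. Chance flags about 1 in 20 such groups. Without this library the log2 difference of *Cyp2c66* from control was 2.84 in heterozygous and 3.02 in homozygous libraries, against 2.66 and 2.84 with it, the highest values among all libraries left out in turn.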

How the results depend on the processing

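Under 8 alternatives and with each of the 18 libraries left out, 2 members, *Cyp2c65* and *Cyp2c66*, were called against control in both IEC-*Ppara* groups, and 0 between homozygous and heterozygous. Over these settings 43 to 136 of all genes were called in homozygous against control and 22 to 80 in heterozygous against control. Between homozygous and heterozygous 0 to 10 were called. The genes tested were 12645, or 13709 with all biotypes and 19314 without the filter. The count of members called for sex stayed at 0 under 7 alternatives and that for the interaction at 0 under 2, also with each library left out. Of all genes, 4 (controls only) to 10 (all biotypes) were called for sex. For the interaction 0 of all genes were called, except for 39 without control replicate 5 and 44 with DESeq2. DESeq2 called 1 pathway gene higher in heterozygous ileum against 0 with edgeR, and allowing 2 mismatches gave 1 member with the direct repeat against 0 with fewer; the cause of the first was not tested, and the second follows from the looser match. In controls alone the sex difference turned to 0.26 for *Cyp2c66* and 0.14 for *Cyp2c68*. Without 1 library *Cyp2c55* in homozygous against control ranged from -0.30 to 0.02 on the log2 scale, and with sex as a covariate it was -0.36, and 0.16 in heterozygous against control (0.38 without). Same-numbered libraries correlated between -0.61 and 0.64 across groups. Differently numbered libraries were not compared, so whether the numbers pair mice is not known. With the replicate block 2 members were called against control in either group, with 49 of 12645 genes called in homozygous and 22 in heterozygous ileum. In homozygous against heterozygous 0 members and 0 of all genes were called, and in females against males 0 members and 7 of all genes. The interaction was not fitted with a block, and 0 pathway genes were called. Depth limits what can be said of *Cyp2c29* and *Cyp2c38*, and 2 females per IEC-*Ppara* group limit the sex comparison.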
